A study of Mus musculus with 12 samples.

Results

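Interferon response genes were followed in the ileum of wild-type mice and mice null for cytochrome P450 reductase (POR), with and without the flavonol quercetin in the diet. The set was a list of 41 genes that interferons are known to induce. Of these, 37 had a probe set annotated to exactly 1 gene symbol, among 12393 genes with such a probe set. Each gene was represented by the probe set with the highest mean over the 12 arrays. Ddx58 and Ifi44 had no probe set by that name, and the probe sets of Isg15 and Tgtp1 were shared with another gene, so the expression of these 4 genes is not analysed here.

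The epithelial layer of the last of 3 equal parts of the small intestine was scraped from male mice aged 6 to 8 weeks. All mice, C57BL/6 wild types and POR-null mice alike, were first kept for 14 days on a soya-free powdered diet. For 24 h they then ate that diet alone (control) or the diet with quercetin at 6.2 g per kg, a dose given as 7 mg for each mouse. There were 4 groups of 3 arrays (wild-type control, wild-type quercetin, POR-null control and POR-null quercetin), and every array carried a pool of RNA from 3 mice. POR hands electrons to the microsomal P450 enzymes. The labels name no tissue for the deletion, and the published study of these mice calls them hepatic POR-null mice. Por is not analysed here, so the genotypes are those of the labels.

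Interferons are secreted proteins that cells release on sensing viral nucleic acid or other microbial signals. Type I and type III interferons act largely through interferon-stimulated response elements (ISRE), to which STAT2 and IRF9 are recruited, whereas interferon gamma acts through gamma-activated sites (GAS) and through IRF1. In the intestine, a basal level of these genes is maintained in the epithelium and in the lymphocytes lying within it.

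All values were log2 expression levels. The array medians lay between 5.91 and 5.96. The epithelial markers Vil1 and Epcam and the ileal bile acid binding protein gene Fabp6 were all above 12 on every array. Other markers of the same lists lay lower, such as epithelial Cdh1 (mean 9.71) and ileal Slc10a2 (mean 6.58). Ileal Fgf15 ran from 5.31 to 8.88. Wild-type control replicate 2 stood apart on the first principal component, at -25.57 against -10.8 to 10.56 for the other 11 arrays. Its score over 8 markers of the proximal small intestine was also the highest, at 0.96, with the other arrays between -0.54 and 0.40. A score is the mean over a list's genes after each gene is centred over the 12 arrays. The score over 6 ileal markers was -0.24 in wild-type control replicate 2 and ran from -0.29 to 0.37 over all arrays. In whole scrapings, fewer cells of a type and less RNA per cell cannot be told apart.

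Promoter sequences are shown for 6 of the genes whose array values are described further on, because they carry the letters of the elements through which interferons act. Each is the 250 bases before the gene's start in RefSeq (mouse build GRCm38.p6), 5′ to 3′ on the strand of the gene, with matches to the ISRE core (GAAA, any 2 bases, GAAA) or to GAS (TTCNNNGAA) on either strand in capitals.
Irf8 (chr8:120736108-120736357, plus strand): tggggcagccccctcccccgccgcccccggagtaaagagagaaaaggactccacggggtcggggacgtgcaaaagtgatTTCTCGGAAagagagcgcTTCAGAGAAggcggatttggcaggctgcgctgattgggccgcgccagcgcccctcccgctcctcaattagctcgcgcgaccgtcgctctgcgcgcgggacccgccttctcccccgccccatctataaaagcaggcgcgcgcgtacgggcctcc
Psmb8 (chr17:34197945-34198194, plus strand): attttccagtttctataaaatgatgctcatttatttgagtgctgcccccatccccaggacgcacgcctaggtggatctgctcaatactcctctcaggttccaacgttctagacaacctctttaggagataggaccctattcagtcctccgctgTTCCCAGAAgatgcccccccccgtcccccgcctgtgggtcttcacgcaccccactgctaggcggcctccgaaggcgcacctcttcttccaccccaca
Ifit3 (chr19:34583279-34583528, plus strand): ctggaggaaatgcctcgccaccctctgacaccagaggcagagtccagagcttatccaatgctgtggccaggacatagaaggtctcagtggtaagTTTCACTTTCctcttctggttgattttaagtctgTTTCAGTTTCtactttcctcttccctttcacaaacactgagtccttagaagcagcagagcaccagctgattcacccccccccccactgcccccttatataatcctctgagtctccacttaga
Irgm1 (chr11:48871421-48871670, minus strand): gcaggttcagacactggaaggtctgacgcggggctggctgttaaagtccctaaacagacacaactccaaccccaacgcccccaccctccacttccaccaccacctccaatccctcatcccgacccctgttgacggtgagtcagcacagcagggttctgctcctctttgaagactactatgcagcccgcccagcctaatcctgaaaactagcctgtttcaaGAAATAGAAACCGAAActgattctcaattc
Igtp (chr11:58199306-58199555, plus strand): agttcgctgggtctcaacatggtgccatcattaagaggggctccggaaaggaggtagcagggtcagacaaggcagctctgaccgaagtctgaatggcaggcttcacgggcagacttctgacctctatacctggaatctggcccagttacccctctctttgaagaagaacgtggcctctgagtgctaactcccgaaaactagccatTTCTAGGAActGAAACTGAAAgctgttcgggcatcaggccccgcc
B2m (chr2:122147437-122147686, plus strand): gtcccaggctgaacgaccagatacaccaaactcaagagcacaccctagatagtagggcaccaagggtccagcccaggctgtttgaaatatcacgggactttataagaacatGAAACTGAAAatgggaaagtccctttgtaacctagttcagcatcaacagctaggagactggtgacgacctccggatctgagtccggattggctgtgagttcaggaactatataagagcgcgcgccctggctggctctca
Irf8 held 2 GAS matches, the first starting 171 bases before the gene's start, and Psmb8 held 1 at 97 bases. Ifit3 held 2 ISRE matches, the first at 156 bases, and B2m held 1 at 139 bases. The 2 matches of Irgm1 overlapped, beginning 30 bases before the start. Igtp held a GAS match at 45 bases and an ISRE match at 34 bases.

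Of the 41 listed genes, 34 had a promoter in the RefSeq table, among them the 4 whose expression is not analysed here. The ISRE core was found in 16 of them (47.1%), against 3.46% of all 27025 genes in the table. GAS letters were found in 8 (23.5%), against 8.13% of all genes. Both elements occurred in 4 genes, and 14 had neither. By role, the ISRE core was held by 5 of 7 promoters of the interferon-inducible GTPases and by 6 of 10 promoters of the antiviral effectors. The windows of Oasl1, Oasl2, Pml and Cxcl9 held neither motif. These matches describe letters in a short window, not occupied sites.

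No interferon response gene passed the adjusted threshold of 0.05 in any comparison. The smallest adjusted p values were 0.269 for quercetin in wild type, 0.415 for quercetin in POR-null, 0.224 for genotype on the control diet, 0.735 for genotype on quercetin and 0.346 for the interaction (limma, Benjamini-Hochberg over 22626 probe sets). Over all probe sets, 1 (0.00442%) passed for quercetin in wild type and 0 (0.0%) in each of the other comparisons. The median difference of the 37 genes stayed near that of all genes. It was -0.04 against -0.02 for quercetin in wild type and 0.01 against 0.02 for quercetin in POR-null. For POR-null minus wild type it was -0.01 against -0.02 on the control diet and 0.03 against 0.02 on quercetin.

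**Figure D1:**
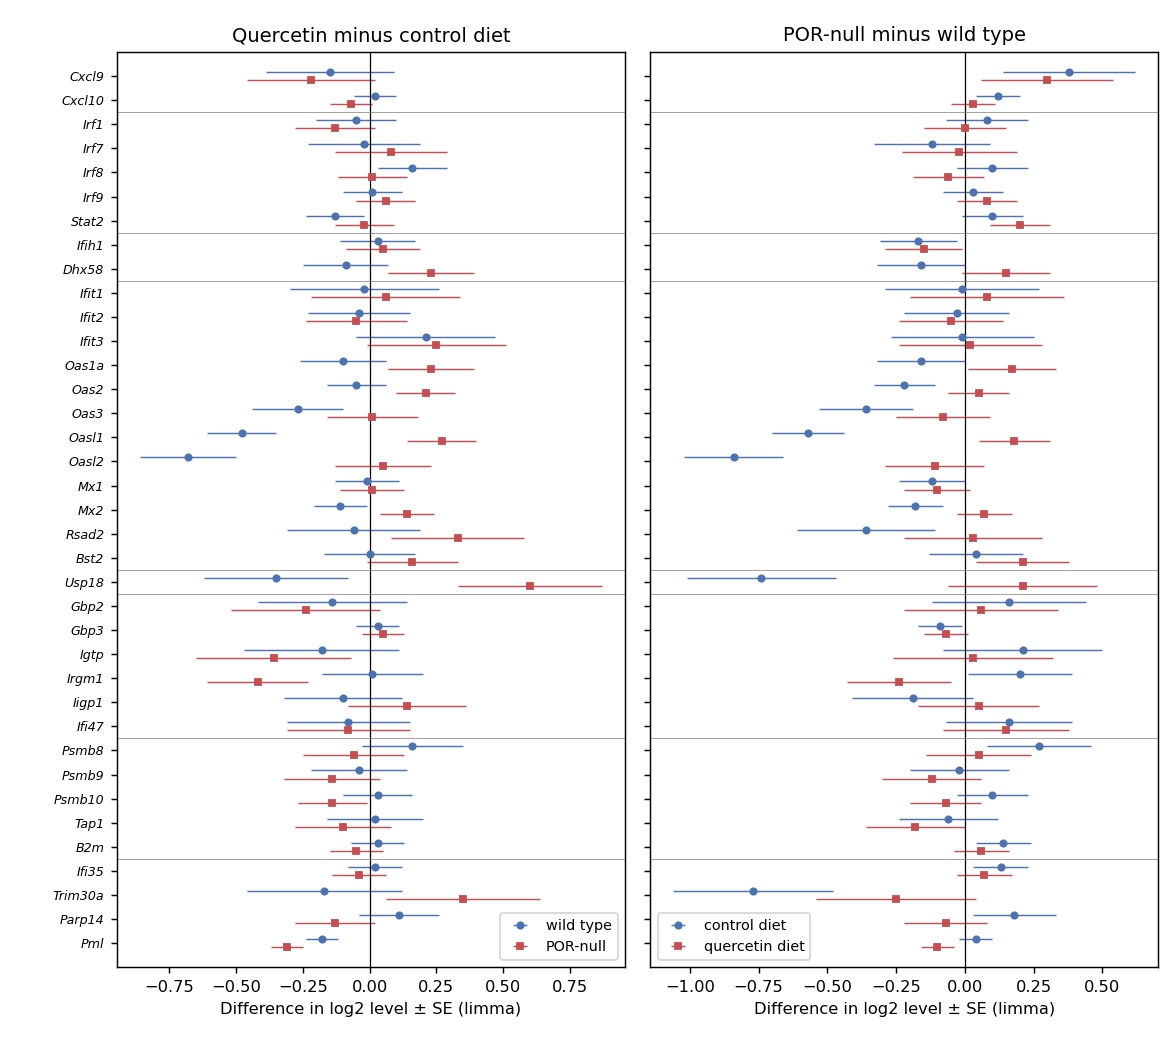
Difference in log2 level ± SE (limma) of each of the 37 interferon response genes, ordered by role from chemokines at the top to other induced genes at the bottom. The left panel shows quercetin minus control diet in each genotype and the right panel POR-null minus wild type on each diet; Oasl1, Oasl2, Usp18 and Trim30a lie farthest below 0 for genotype on the control diet.

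Pools of the same group differed widely in these genes. The SD within groups had a median of 0.25 over the 37 genes, against 0.109 over all genes. It was above the all-gene median in 34 of 37 genes (91.9%). Among the 4462 genes whose mean levels lay in the middle part of the range covered by the list, the median was 0.115, and 55.6% were above the all-gene median of 0.109. The widest was Igtp, an interferon-inducible GTPase, at 0.459, and the narrowest was Pml at 0.0473. This comparison is a description, since genes measured on the same arrays are not independent.

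**Figure D2:**
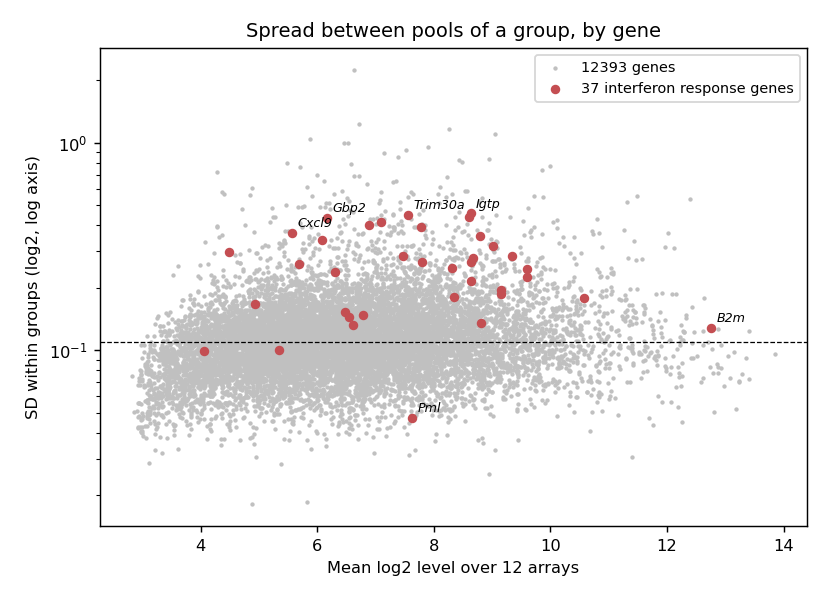
SD within groups (log2, log axis) against mean log2 level over the 12 arrays for 12393 genes in grey and the 37 interferon response genes in red. The dashed line marks the all-gene median of 0.109, and 34 of the 37 genes lie above it.

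Most of the genes lay high or low together in the same pools. The score of the 37 genes was 0.19, 0.03 and -0.07 in the wild-type control pools and -0.21, 0.08 and 0.06 in the wild-type quercetin pools. It was 0.23, -0.06 and -0.25 in the POR-null control pools and 0.18, 0.01 and -0.21 in the POR-null quercetin pools. Every group overlapped every other group, and in each the range over 3 pools exceeded the differences between the group means. Those means were 0.05, -0.02, -0.02 and 0.00 in the same order.

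POR-null control replicate 1 was the highest of its group in 33 of 37 genes (89.2%), against 41.8% of all genes. Replicate 3 of that group was the lowest in 28 (75.7%), against 37.4%. Wild-type quercetin replicate 1 was the lowest of its group in 28 genes (75.7%, against 27.1% of all genes) and the highest in 0. POR-null quercetin replicate 3 was the lowest of its group in 27 genes (73.0%, against 37.0%). Replicate 1 was also the highest of its group in 23 genes in wild-type control (62.2%, against 37.5%) and in 20 in POR-null quercetin (54.1%, against 38.2%). Replicate 3 of wild-type control was the lowest in 22 (59.5%, against 32.0%). Replicate 1 was thus most often highest and replicate 3 most often lowest in every group but wild-type quercetin. Whether pools of the same number share a source of this order was not tested.

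**Figure D3:**
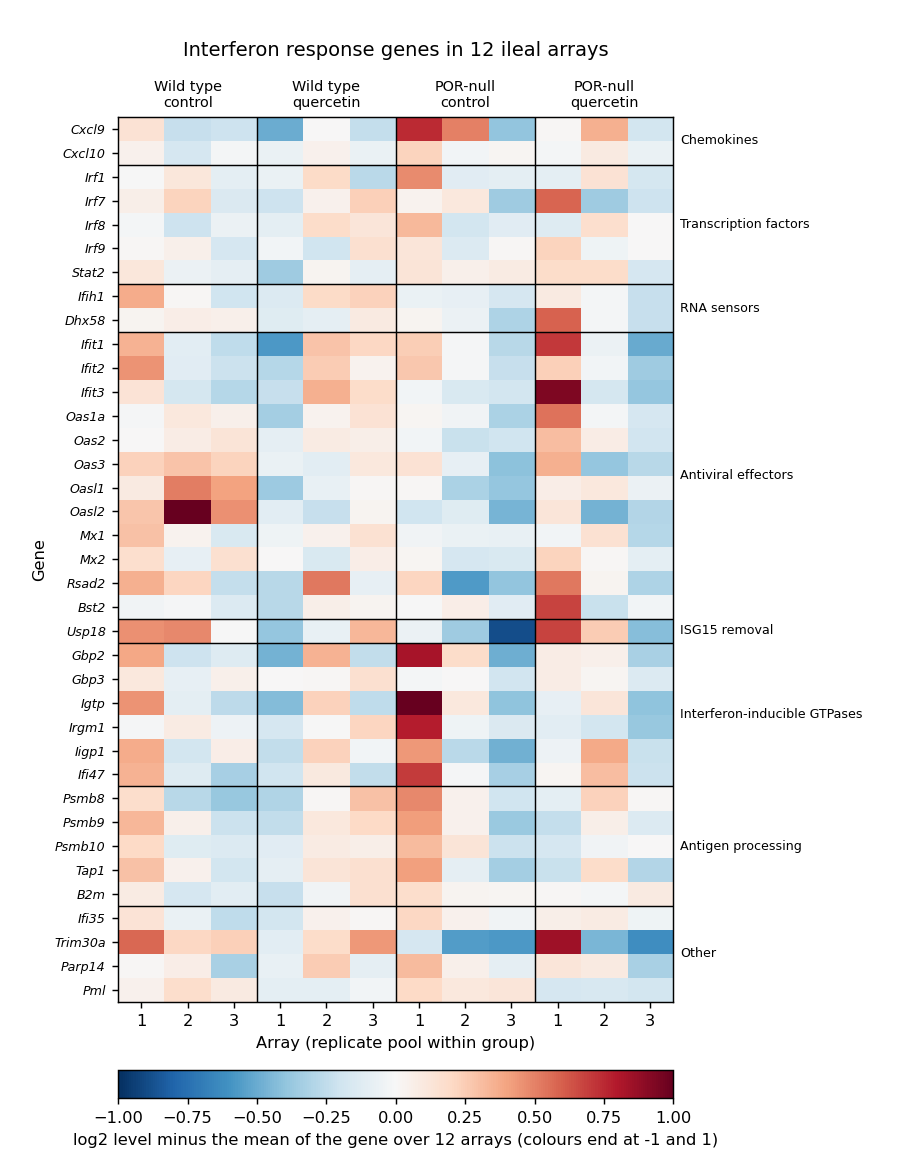
Level of each of the 37 interferon response genes on each array, as log2 minus the gene's mean over the 12 arrays, with genes ordered by role and arrays by group and replicate. The colour scale ends at -1 and 1, so values beyond it take the end colours; POR-null control 1 is high through the GTPases and antigen processing genes, and POR-null quercetin 1 through the antiviral effectors.

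The high pools differed in which genes stood out. POR-null control replicate 1 was the highest of all 12 arrays for 17 of the 37 genes (all genes, 8.51%), among them both chemokines, 5 of 6 GTPases and 5 of 5 antigen processing genes, but 0 of 12 antiviral effectors. POR-null quercetin replicate 1 was the highest for 12 genes (all genes, 10.3%), among them 7 of 12 antiviral effectors and Usp18, but 0 GTPases and 0 antigen processing genes. The GTPase score was 0.62 in POR-null control replicate 1 and -0.01 in POR-null quercetin replicate 1. The antiviral effector score was 0.05 and 0.39 in the same pools. The contrast was chosen after these values were seen and was not tested.

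**Figure D4:**
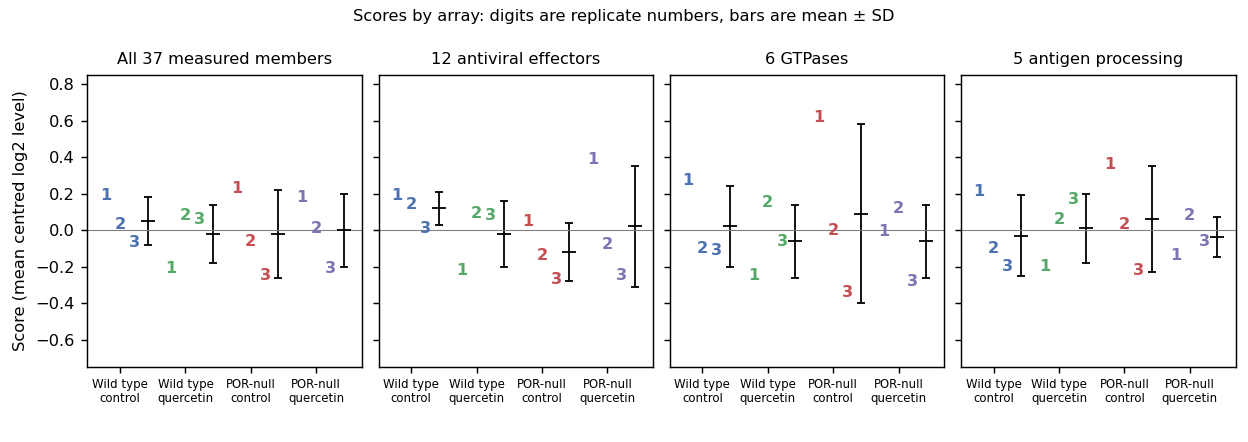
Per-array scores (mean of log2 levels after centring each gene) of the 37 interferon response genes and of groups of them by role, for the 4 groups of 3 pools; digits are replicate numbers and bars show the mean ± SD. Single pools set the range of each group, for example 0.62 for the GTPases in POR-null control 1 and 0.39 for the antiviral effectors in POR-null quercetin 1.

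Marker lists of other cells were read in the same pools. The smooth muscle and stroma score, with 8 of 8 genes measured, was 1.01 in POR-null control replicate 1, the highest of the 12 arrays, and 0.28 in POR-null quercetin replicate 1. By group it ran from -0.78 to -0.16 in wild-type control, -0.74 to 0.36 in wild-type quercetin, -0.51 to 1.01 in POR-null control and 0.13 to 0.67 in POR-null quercetin. The score of T cell, NK cell and intraepithelial lymphocyte genes, with 13 of 14 measured, was 0.17 and -0.12 in the 2 high pools. It ran from -0.35 to -0.01, -0.14 to 0.24, -0.17 to 0.17 and -0.12 to 0.31 in the groups in that order. On this score POR-null control replicate 1 was the highest of its group and POR-null quercetin replicate 1 the lowest of its group. The myeloid score, with 8 of 10 genes measured, was 0.00 and 0.13 in those pools and between -0.14 and 0.13 over all arrays. The part of these cells in the pool differences was not tested.

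Antiviral effectors act directly on viral RNA, protein synthesis or budding. All 12 of those listed were measured. On quercetin 11 of 12 had a lower mean in wild type and 11 of 12 a higher mean in POR-null, while on the control diet 11 of 12 had a lower mean in POR-null than in wild type. These comparisons share groups, so the counts are not independent of each other, and none of the 12 genes passed the adjusted threshold. Single pools weighed on the counts. The antiviral effector score was 0.19, 0.14 and 0.01 in wild-type control and -0.22, 0.09 and 0.08 in wild-type quercetin. It was 0.05, -0.14 and -0.27 in POR-null control and 0.39, -0.08 and -0.25 in POR-null quercetin. Some counted differences were near 0, such as -0.02 for Ifit1 in wild type and 0.01 for Mx1 in POR-null. All genes leaned the same ways: 43.0% had a higher mean on quercetin in wild type, 56.0% a higher mean on quercetin in POR-null and 43.3% a higher mean in POR-null on the control diet. The median differences of the 12 were -0.05, 0.15 and -0.17, against -0.02, 0.02 and -0.02 over all genes. The 8 markers of the proximal small intestine had median differences of -0.39, 0.37 and -0.58 in the same comparisons, and their part in the antiviral values was not tested.

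Oasl2, a 2'-5'-oligoadenylate synthetase-like protein, had the widest range of group means. Its level was 8.08, 8.80 and 8.26 in wild-type control, 7.70, 7.57 and 7.83 in wild-type quercetin, 7.60, 7.68 and 7.34 in POR-null control and 7.92, 7.33 and 7.51 in POR-null quercetin. The 3 wild-type control pools lay above the other 9 arrays, and the other groups overlapped. Quercetin minus control was -0.68 ± 0.18 (SE) in wild type, or 0.624-fold (limma adjusted p = 0.269), and 0.05 ± 0.18 in POR-null (adjusted p = 0.977). POR-null minus wild type was -0.84 ± 0.18 on the control diet, or 0.559-fold (limma adjusted p = 0.224), and -0.11 ± 0.18 on quercetin (adjusted p = 0.926). The highest pool was wild-type control replicate 2, the array apart on the first component. Without it the differences were -0.47 for quercetin in wild type (limma adjusted p = 0.536) and -0.63 for genotype on the control diet (adjusted p = 0.395).

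Oasl1, the neighbour of Oasl2 on chromosome 5, is a related protein that restrains translation of Irf7 mRNA. Its level was 9.24, 9.66 and 9.55 in wild-type control and 8.78, 9.07 and 9.16 in wild-type quercetin. It was 9.16, 8.83 and 8.76 in POR-null control and 9.21, 9.25 and 9.09 in POR-null quercetin. Wild-type control did not overlap wild-type quercetin or POR-null control, while its lowest pool lay among those of POR-null quercetin. The difference was -0.48 ± 0.13 (SE) for quercetin in wild type (limma adjusted p = 0.269) and 0.27 ± 0.13 in POR-null (adjusted p = 0.752). The quercetin effect in POR-null minus that in wild type was 0.75 ± 0.18 (limma adjusted p = 0.346).

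Usp18, a protease that removes ISG15 from proteins and dampens signalling at the type I receptor, had the same order of group means as Oasl1. Its level was 7.55, 7.58 and 7.09 in wild-type control, 6.71, 7.02 and 7.43 in wild-type quercetin, 7.04, 6.74 and 6.21 in POR-null control and 7.77, 7.35 and 6.67 in POR-null quercetin. The control groups did not overlap between genotypes, although the lowest wild-type pool and the highest POR-null pool were 7.09 and 7.04. POR-null minus wild type on the control diet was -0.74 ± 0.27 (limma adjusted p = 0.391). Quercetin minus control was -0.35 ± 0.27 in wild type and 0.60 ± 0.27 in POR-null, with an interaction of 0.95 ± 0.38 (limma adjusted p = 0.445). Leaving out 1 pool at a time moved the POR-null quercetin difference between 0.35, without POR-null quercetin replicate 1, and 0.90, without POR-null quercetin replicate 3.

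The synthetases Oas1a, Oas2 and Oas3 make the 2'-5'-oligoadenylates that activate RNase L. Oas3 stood at 8.54, 8.59 and 8.53 in wild-type control, 8.24, 8.20 and 8.41 in wild-type quercetin, 8.45, 8.23 and 7.90 in POR-null control and 8.66, 7.92 and 8.03 in POR-null quercetin. The tight wild-type control pools lay above all pools of wild-type quercetin and POR-null control. POR-null minus wild type on the control diet was -0.36 ± 0.17 (limma adjusted p = 0.492). Without POR-null control replicate 3 it was -0.21.

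Oas2, which adjoins Oas3 on chromosome 5, was at 6.79, 6.86 and 6.92 in wild-type control, 6.70, 6.87 and 6.85 in wild-type quercetin, 6.76, 6.57 and 6.59 in POR-null control and 7.10, 6.86 and 6.60 in POR-null quercetin. POR-null control lay just below wild-type control, by -0.22 ± 0.11 (limma adjusted p = 0.51), and the other groups overlapped it. Oas1a was at 9.58, 9.69 and 9.64 in wild-type control, 9.25, 9.62 and 9.73 in wild-type quercetin, 9.61, 9.55 and 9.27 in POR-null control and 10.13, 9.57 and 9.42 in POR-null quercetin. All 4 groups overlapped, and the single high value was POR-null quercetin replicate 1.

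Ifit3, an adaptor of the complex by which IFIT proteins bind foreign RNA, showed the same high pool. Its level was 7.03, 6.72 and 6.61 in wild-type control, 6.66, 7.25 and 7.08 in wild-type quercetin, 6.87, 6.74 and 6.71 in POR-null control and 7.83, 6.72 and 6.51 in POR-null quercetin. The groups overlapped, and quercetin minus control was 0.21 ± 0.26 in wild type and 0.25 ± 0.26 in POR-null (limma adjusted p = 0.797 and 0.896). Ifit1, which binds RNA lacking a self cap, reached 9.31 in that pool, against 8.03 to 8.95 elsewhere. Bst2, which tethers budding virions to the cell, reached 6.36 against 5.41 to 5.75.

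Mx2, a dynamin-like GTPase whose function in these mice is not analysed here, was at 6.78, 6.53 and 6.77 in wild-type control, 6.61, 6.46 and 6.68 in wild-type quercetin, 6.63, 6.44 and 6.46 in POR-null control and 6.83, 6.62 and 6.51 in POR-null quercetin. All groups overlapped, and the interaction was 0.25 ± 0.14 (limma adjusted p = 0.541). Mx1, whose allele in C57BL/6 mice is known to be defective, was between 4.65 and 5.23 on all arrays. Rsad2, the enzyme viperin, ranged from 7.20 to 8.29. Its main probe set differed by 0.33 ± 0.25 with quercetin in POR-null (limma adjusted p = 0.845), and its other probe sets by 0.38 and 0.44. POR-null minus wild type on the control diet was -0.36 ± 0.25 on the main probe set, with overlapping groups. On the others it was -0.32, with overlapping groups, and -0.74, with POR-null wholly lower.

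**Figure D5:**
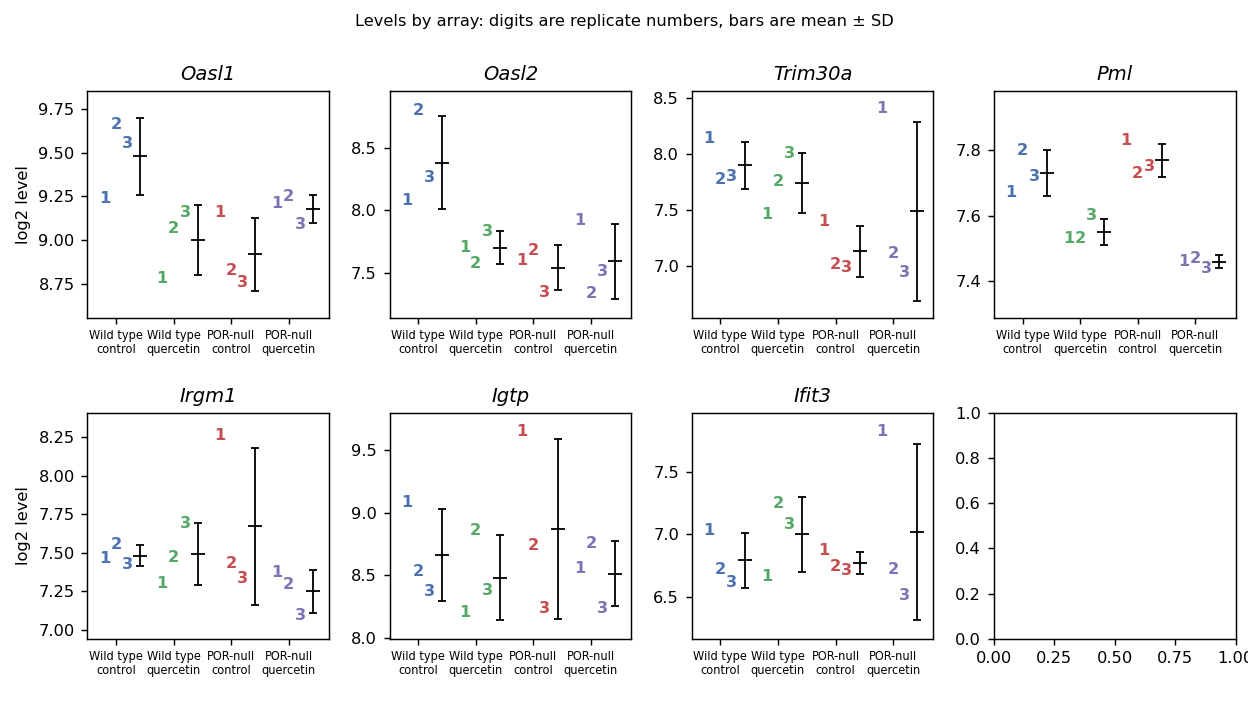
Log2 levels of Oasl1, Oasl2, Trim30a, Pml, Irgm1, Igtp and Ifit3 in every pool. Digits are replicate numbers within a group and bars show the mean ± SD of 3 pools. Oasl2 is highest in the 3 wild-type control pools, Pml is lower in both quercetin groups than in both control groups, and single pools stand out for Irgm1 (8.26) and Ifit3 (7.83).

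Among the remaining induced genes, Pml, which builds nuclear bodies and restrains viral transcription, had the most even values. Its level was 7.67, 7.80 and 7.72 in wild-type control, 7.53, 7.53 and 7.60 in wild-type quercetin, 7.83, 7.73 and 7.75 in POR-null control and 7.46, 7.47 and 7.44 in POR-null quercetin. All 6 quercetin pools lay below all 6 control pools. Quercetin minus control was -0.18 ± 0.06 in wild type (limma adjusted p = 0.351) and -0.31 ± 0.06 in POR-null (limma adjusted p = 0.415). The average over genotypes was -0.24 ± 0.05, or 0.844-fold (limma adjusted p = 0.277). In no single-pool omission did either difference change sign: the POR-null one stayed between -0.33 and -0.28 and the wild-type one between -0.21 and -0.14.

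Trim30a, a ubiquitin ligase that restrains Toll-like receptor signalling, was at 8.14, 7.77 and 7.80 in wild-type control, 7.46, 7.75 and 8.00 in wild-type quercetin, 7.40, 7.01 and 6.99 in POR-null control and 8.41, 7.11 and 6.94 in POR-null quercetin. In POR-null 5 of 6 pools lay below every wild-type pool, and POR-null quercetin replicate 1 was the highest array of all. POR-null minus wild type was -0.77 ± 0.29 on the control diet (limma adjusted p = 0.407) and -0.25 ± 0.29 on quercetin (adjusted p = 0.89). The average over diets was -0.51 ± 0.20 (adjusted p = 0.637). Without POR-null quercetin replicate 1 it was -0.74 (adjusted p = 0.232). The second probe set of Trim30a differed by -0.64 on the control diet and -0.24 on quercetin. On that probe set the control-diet groups overlapped, with POR-null control replicate 1 at 6.37 and wild-type control replicate 3 at 6.34.

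Ifi35, a cytosolic partner of the protein NMI, was at 8.95, 8.75 and 8.56 in wild-type control, 8.63, 8.86 and 8.83 in wild-type quercetin, 9.02, 8.86 and 8.78 in POR-null control and 8.87, 8.90 and 8.77 in POR-null quercetin. All 4 groups overlapped. Parp14, an ADP-ribosyltransferase, ranged from 8.30 to 8.94 over the arrays, with its highest value in POR-null control replicate 1.

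The inducible GTPases of the GBP and IRG families coat and disrupt the vacuoles of intracellular parasites and bacteria, and interferon gamma is their strongest known inducer. Irgm1, which regulates the other IRG proteins, was at 7.46, 7.55 and 7.42 in wild-type control, 7.30, 7.47 and 7.69 in wild-type quercetin, 8.26, 7.43 and 7.33 in POR-null control and 7.37, 7.29 and 7.09 in POR-null quercetin. The groups overlapped, and 1 POR-null control pool stood above the other 11 arrays. Quercetin minus control in POR-null was -0.42 ± 0.19 (limma adjusted p = 0.727). Without POR-null control replicate 1 it was -0.13 (adjusted p = 0.849).

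Igtp, also called Irgm3, was at 9.08, 8.53 and 8.37 in wild-type control, 8.20, 8.86 and 8.38 in wild-type quercetin, 9.65, 8.74 and 8.23 in POR-null control and 8.55, 8.75 and 8.23 in POR-null quercetin. All groups overlapped. The POR-null quercetin difference of -0.36 ± 0.29 (limma adjusted p = 0.847) became 0.03 when POR-null control replicate 1 was left out. Ifi47, another IRG protein, was at 9.14, 8.66 and 8.46 in wild-type control, 8.59, 8.89 and 8.55 in wild-type quercetin, 9.49, 8.78 and 8.46 in POR-null control and 8.81, 9.10 and 8.58 in POR-null quercetin. It had the same highest pool, and its groups overlapped. Gbp2 ranged from 5.67, in POR-null control replicate 3, to 6.98, in POR-null control replicate 1, so a single group held both ends of its range.

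The chemokines Cxcl9 and Cxcl10 draw T cells and NK cells through the receptor CXCR3. Cxcl9 was at 5.71, 5.34 and 5.36 in wild-type control, 5.07, 5.57 and 5.33 in wild-type quercetin, 6.31, 6.07 and 5.17 in POR-null control and 5.58, 5.92 and 5.38 in POR-null quercetin. The groups overlapped, although the 3 highest arrays were all POR-null. POR-null minus wild type was 0.38 ± 0.24 on the control diet (limma adjusted p = 0.599) and 0.30 ± 0.24 on quercetin (adjusted p = 0.811). The control-diet difference was 0.15 without POR-null control replicate 1 and 0.72 without POR-null control replicate 3. The difference on quercetin was 0.18 without wild-type quercetin replicate 1 and 0.16 without POR-null quercetin replicate 2. Cxcl10 stayed between 5.17 and 5.56.

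The antigen processing genes supply peptides to MHC class I. Psmb8, an immunoproteasome subunit that lies beside Tap1 and Psmb9 on chromosome 17, was at 9.51, 9.06 and 8.96 in wild-type control, 9.04, 9.35 and 9.63 in wild-type quercetin, 9.82, 9.38 and 9.14 in POR-null control and 9.24, 9.57 and 9.35 in POR-null quercetin. Its groups overlapped in every comparison, and POR-null minus wild type on the control diet was 0.27 ± 0.19 (limma adjusted p = 0.639). It was 0.08 and 0.42 when POR-null control replicate 1 or 3 was left out, and 0.44 and 0.16 when replicate 1 or 3 of wild-type control was left out. B2m, the invariant light chain of MHC class I, was at 12.83, 12.58 and 12.65 in wild-type control, 12.52, 12.72 and 12.91 in wild-type quercetin, 12.93, 12.78 and 12.77 in POR-null control and 12.76, 12.73 and 12.84 in POR-null quercetin. Its groups overlapped, and the POR-null difference on the control diet was 0.14 ± 0.10 (limma adjusted p = 0.644). Psmb9, Psmb10 and the peptide transporter gene Tap1 each had their highest array in POR-null control replicate 1, at 9.09, 10.90 and 9.04. The 3 other probe sets of Tap1 and the other probe set of B2m had their highest array elsewhere.

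The 5 transcription factors had a median SD within groups of 0.18, against 0.25 for the whole list. Irf1, which interferon gamma induces, was at 9.59, 9.71 and 9.50 in wild-type control, 9.53, 9.79 and 9.33 in wild-type quercetin, 10.07, 9.48 and 9.50 in POR-null control and 9.50, 9.74 and 9.42 in POR-null quercetin. Irf8, a factor of myeloid and B lineage cells as well as an interferon target, was at 8.33, 8.14 and 8.29 in wild-type control, 8.25, 8.53 and 8.47 in wild-type quercetin, 8.67, 8.16 and 8.23 in POR-null control and 8.22, 8.51 and 8.35 in POR-null quercetin. For both genes the groups overlapped and POR-null control replicate 1 was the highest array. Irf8 differed by 0.16 ± 0.13 with quercetin in wild type (limma adjusted p = 0.659), where the median over 7 B lineage genes was 0.50, whose part in the Irf8 value was not tested. The other probe set of Irf8 differed by 0.02 in that comparison and had its highest array in wild-type control replicate 1, at 8.21. Irf7, which amplifies type I interferon production, was instead highest in POR-null quercetin replicate 1, at 9.59 against 8.65 to 9.25 elsewhere.

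Stat2, which acts in type I and III interferon signalling, was at 6.59, 6.42 and 6.39 in wild-type control, 6.12, 6.51 and 6.39 in wild-type quercetin, 6.61, 6.53 and 6.56 in POR-null control and 6.66, 6.66 and 6.31 in POR-null quercetin. POR-null minus wild type on quercetin was 0.20 ± 0.11 (limma adjusted p = 0.735), with overlapping groups. Irf9 ranged from 6.34 to 6.76.

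The RNA sensor gene Ifih1, which encodes MDA5, was at 9.52, 9.16 and 8.95 in wild-type control, 9.01, 9.34 and 9.38 in wild-type quercetin, 9.08, 9.07 and 8.98 in POR-null control and 9.24, 9.13 and 8.92 in POR-null quercetin. All groups overlapped, and POR-null minus wild type was -0.15 ± 0.14 on quercetin (limma adjusted p = 0.85). Dhx58, the related helicase LGP2, was highest in POR-null quercetin replicate 1, at 6.89 against 5.99 to 6.39 elsewhere. Its 2 other probe sets had their highest array elsewhere, in wild-type quercetin replicate 3 (3.77) and wild-type control replicate 3 (6.07).

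The next counts use unadjusted p values. For quercetin in wild type, 3 of 37 genes (8.11%) had an unadjusted p under 0.05, against 10.4% of all genes. These were Oasl1, Oasl2 and Pml, all lower on quercetin, the direction of 5.33% of all genes, while 0 were higher, against 5.08%. For quercetin in POR-null there were 3 (8.11%, against 7.08%), with Usp18 higher (all genes, 4.05%) and Irgm1 and Pml lower (all genes, 3.03%). For POR-null against wild type on the control diet there were 5 (13.5%, against 10.0%), namely Oas3, Oasl1, Oasl2, Usp18 and Trim30a. All 5 were lower in POR-null, as were 5.94% of all genes, and 0 were higher, against 4.09%. On the quercetin diet there were 0, against 7.45% of all genes (4.03% higher and 3.41% lower). These counts changed with single arrays. On the control diet the count of 5 became 9 without POR-null control replicate 1 and 3 without POR-null control replicate 2. For quercetin in POR-null the count of 3 became 5 and 6 when replicate 1 or 3 of the controls was left out, and 1 and 6 when replicate 2 or 3 of the quercetin pools was left out. The count of 0 on the quercetin diet became 3 without POR-null quercetin replicate 1.

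The interaction gave 3 genes (8.11%, against 11.1%), which were Oasl1, Oasl2 and Usp18. In each the quercetin difference was more positive in POR-null, as in 6.75% of all genes, and 0 went the other way, against 4.38%. The average quercetin effect gave 2 (5.41%, against 7.15%), Oasl2 and Pml, both lower (all genes, 3.44% lower and 3.71% higher). The average genotype effect gave 2 (5.41%, against 7.07%), Oasl2 and Trim30a, both lower in POR-null (all genes, 3.6% lower and 3.47% higher). The interaction count became 6 without POR-null quercetin replicate 3. With 1 array left out, the count for each average effect ran from 1 to 5.

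The next counts are of genes whose groups did not overlap. For quercetin in wild type 4 genes lay wholly lower (Oas3, Oasl1, Oasl2 and Pml), where 7.93% of all genes did, and 0 wholly higher, where 5.24% did. In POR-null 1 gene, Pml, lay wholly lower, where 5.12% of all genes did, and 0 wholly higher, where 8.3% did. On the control diet 6 genes lay wholly lower in POR-null (Oas2, Oas3, Oasl1, Oasl2, Usp18 and Trim30a), where 8.84% of all genes did, and 0 wholly higher, where 5.04% did. On quercetin 1 gene, Pml, lay wholly lower, where 5.36% of all genes did, and 0 wholly higher, where 7.58% did.

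The wider pathway was read from a list of 91 ligands, receptors, signalling proteins and further targets, of which 67 were measured and 0 passed the adjusted threshold in any comparison. Unadjusted p values under 0.05 were found for 6 of 67 genes (8.96%) with quercetin in wild type, all lower, and for 4 (5.97%) with quercetin in POR-null. For genotype there were 2 (2.99%) on the control diet and 1 (1.49%) on quercetin. The interaction gave 4 (5.97%). The average quercetin effect gave 6 (8.96%) and the average genotype effect 2 (2.99%). The shares of all genes in the same comparisons are those given above, with 5.33% of all genes lower on quercetin in wild type.

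Socs3, an inhibitor of JAK kinases and a target of STAT3, had the smallest p in wild type. Of its 3 probe sets, only the one with the highest mean is described here. Its level was 7.65, 7.71 and 7.63 in wild-type control, 7.35, 7.04 and 7.10 in wild-type quercetin, 7.46, 7.68 and 7.20 in POR-null control and 7.58, 7.50 and 7.45 in POR-null quercetin. Wild-type quercetin lay wholly below wild-type control and wholly below POR-null quercetin. Quercetin minus control was -0.50 ± 0.11 in wild type (limma adjusted p = 0.231), and the interaction was 0.56 ± 0.16 (adjusted p = 0.351).

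Irf2, a repressor that competes with IRF1, was at 6.05, 6.13 and 6.04 in wild-type control, 5.88, 6.16 and 5.87 in wild-type quercetin, 6.29, 6.51 and 6.33 in POR-null control and 5.95, 6.03 and 6.06 in POR-null quercetin. The POR-null control pools lay above the other 9 arrays. Quercetin minus control in POR-null was -0.36 ± 0.09 (limma adjusted p = 0.512), and POR-null minus wild type on the control diet was 0.30 ± 0.09 (adjusted p = 0.337). Ube2l6, the conjugating enzyme for ISG15, differed by 0.21 ± 0.07 with quercetin in POR-null (limma adjusted p = 0.697), at a low mean level of 4.68.

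Il18, an epithelial cytokine that induces interferon gamma, was at 8.54, 8.66 and 8.98 in wild-type control, 8.85, 8.17 and 7.76 in wild-type quercetin, 7.89, 8.10 and 8.08 in POR-null control and 8.19, 8.02 and 8.06 in POR-null quercetin. Wild-type control lay above both POR-null groups, with a genotype difference of -0.70 ± 0.20 on the control diet (limma adjusted p = 0.334). Of the interferon genes, Ifng ranged from 4.07 to 4.51, Ifna4 from 4.57 to 4.92 and Ifnb1 from 5.30 to 5.71. These levels lay below the array medians of 5.91 to 5.96, and signal over background was not analysed here. Ifna4 and Ifnb1 each differed by -0.19 with quercetin in wild type (limma adjusted p = 0.348 and 0.392). Both were among the pathway genes counted above with an unadjusted p under 0.05, there and for the interaction. The receptor genes Ifngr1, Ifngr2, Ifnar1 and Ifnar2 were all measured, and none of the 5 receptor genes reached an unadjusted p of 0.05 in any comparison.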

How the data were processed

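RNA from ileal scrapings was hybridised to Affymetrix 430A arrays, 12 in all, each from 3 pooled mice. The authors deposited log2 expression values, used here as deposited. MAS5 and RMA are named, without role or version, per the submitters' processing notes. The 64 array controls among 22690 probe sets were not tested. The platform annotation gave 20380 probe sets 1 symbol, 691 several and 1555 none.

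All 12 arrays entered 1 model with a mean for each group (lmFit, then eBayes, in limma 3.58.1 under R 4.3.3), with Benjamini-Hochberg adjustment over 22626 probe sets and a threshold of 0.05. The median SE was 0.0886 for a pair of groups and 0.125 for the interaction. The fit was checked on simulated data with noise drawn independently for each probe set and array. That check does not cover genes that vary together between pools. The number of arrays limits the precision. The pools of a group hold different mice.

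The members and gene lists were chosen with earlier results of these data known. Values on every array are given for members with the 3 smallest p in each direction of a comparison (5 for the interaction), the 3 widest ranges of group means, and the highest mean of each role. All array values of Oas3 and Socs3, Irf2 and Il18, the single values of Ifit1, Bst2, Irf7 and Dhx58, and Ifng were chosen after seeing them. Motifs were searched in 250 bases of RefSeq promoters. Alternatives covered normalization, filters, weights, probe set choice, a replicate block and each array left out. Python 3.11.15, pandas 2.3.3 and matplotlib 3.10.9 were used.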

Additional observations from a re-analysis of the deposited data

How the results depend on the processing

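In every alternative run, 0 interferon response genes passed the adjusted threshold. The median differences of the list, all near 0, changed sign in every comparison under some alternatives. With 1 array left out they ran from -0.10 to 0.04 for quercetin in wild type, -0.07 to 0.10 for quercetin in POR-null, -0.14 to 0.09 for genotype on the control diet, -0.10 to 0.10 for genotype on quercetin, -0.09 to 0.12 for the interaction, -0.05 to 0.05 for the average quercetin effect and -0.06 to 0.04 for the average genotype effect. Among the differences of single genes that were recomputed, that of Igtp for quercetin in POR-null changed sign, at -0.36 with all arrays, -0.69 to 0.03 with 1 array left out (0.03 without POR-null control replicate 1) and 0.01 without that array and POR-null quercetin replicate 1 together, an alternative added after seeing the data. Counts of interferon response genes with an unadjusted p under 0.05, with 1 array left out, ran from 2 to 4 for quercetin in wild type, 1 to 6 for quercetin in POR-null, 3 to 9 for genotype on the control diet, 0 to 3 for genotype on quercetin, 2 to 6 for the interaction, and 1 to 5 for each average effect. With both arrays left out, genotype on the control diet gave 10, genotype on quercetin 4, the average quercetin effect 4 and the average genotype effect 9.

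The number of probe sets passing over the whole array depended more on the setting. For quercetin in wild type it was 1, and became 7 without probe sets below the lower quartile, 7 with eBayes trend and robust, 5 with a replicate block, 2 with only the arrays compared, 0 when each gene's probe sets were averaged, 13 at an adjusted threshold of 0.1, and 1 to 59 with 1 array left out. Genotype on the control diet, 0 at first, gave 1 with trend and robust, 1 without both arrays and 0 to 15 with 1 array left out. Genotype on quercetin, also 0, gave 5 with trend and robust, 2 with the replicate block, 2 with only the arrays compared and 0 to 1 with 1 array left out. The interaction, also 0, gave 2 with trend and robust, 3 with the replicate block, 2 at the threshold of 0.1 and 0 to 9 with 1 array left out. The average quercetin effect gave 2 with centred arrays, 1 without the lower quartile, 1 with trend and robust, 1 with array weights, 2 at 0.1 and 0 to 1 with 1 array left out. The average genotype effect gave 4 with trend and robust, 2 with the replicate block, 4 with array weights, 1 without both arrays, 2 at 0.1 and 0 to 6 with 1 array left out. The causes were not tested.

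Over all probe sets, 18 same-numbered pairs of pools deviated from their group means with correlations of -0.179 to 0.1618. Of these, 3 were over 0.1, and 5 of 12 arrays correlated best with their own number. These values cover the whole array, so they cannot show whether the interferon response genes share an order by replicate number. With 3 pools a group, the SE reached 0.29 for the most variable genes, such as Trim30a, against a median of 0.0886 over all probe sets. The mean levels of Gbp3 (4.05) and Ifit2 (4.49) lay low on the scale, and signal over background was not analysed here. The same holds for Ifng (4.2), Ube2l6 (4.68), Ifna4 (4.72) and Ifnb1 (5.48) of the wider pathway.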
